A study of Mus musculus with 2 samples.

Results

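The IFIT, OAS and Mx genes are antiviral genes switched on by interferon, and 10 of them were followed across the cell types of injured mouse muscle: Ifit1, Ifit2, Ifit3, Ifit3b, Oas1a, Oas2, Oas3, Oasl1, Mx1 and Mx2. They were picked by symbol from the gene list of the series, where they are 10 of 55487 genes, and UMIs of all 10 were found in both libraries. The series compared cells of injured tibialis anterior (TA) muscle from mice carrying a conditional knockout of Setdb1 (KO) with those from wild-type mice (WT), both 8 to 12 weeks old, in 1 single-cell RNA-seq library each. By its title, the series asks what SETDB1 does in the stem cells of regenerating muscle. SETDB1 is a histone methyltransferase that places the repressive mark H3K9me3. The labels do not say which Cre driver, strain, injury, time after injury or number of animals lies behind each library, so the cells in which Setdb1 was deleted are not known from them.

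Interferons bind receptors on nearly all nucleated cells and act through the kinases JAK1 and TYK2 and a complex of transcription factors that includes STAT2 and IRF9. This complex binds a short DNA sequence, the interferon-stimulated response element (ISRE), near the genes it turns on. IFIT proteins bind viral RNA or translation factors, OAS enzymes sense double-stranded RNA and make 2',5'-oligoadenylates that set off the breakdown of RNA, and Mx proteins are dynamin-like GTPases that block incoming virus. In muscle, injury brings in monocytes that become macrophages, and these cells, along with endothelial cells and fibro-adipogenic progenitors, surround the muscle stem cells that rebuild fibres.

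The 10 genes lie in 3 chromosomal groups of GRCm38. Ifit2 (chr19:34550694-34576419), Ifit3 (chr19:34583531-34588731), Ifit3b (chr19:34607970-34613401) and Ifit1 (chr19:34640871-34650009) follow each other on the plus strand of chromosome 19. Oasl1 (chr5:114923240-114937915, plus strand) lies apart on chromosome 5 from Oas2 (chr5:120730333-120749853), Oas3 (chr5:120753098-120777661) and Oas1a (chr5:120896256-120907521), which are on its minus strand. Mx1 (chr16:97447035-97462907, minus strand) and Mx2 (chr16:97535308-97560900, plus strand) are on chromosome 16. GENCODE M21 annotates Mx2 as a polymorphic pseudogene and the other 9 as protein coding, and many inbred laboratory strains are known to carry defective Mx alleles.

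The promoters are shown because 5 of the members hold matches to the element through which interferon acts. Of the 10 genes, 7 are in the RefSeq promoter table of GRCm38.p6, and Oas2, Mx1 and Mx2 are not shown. The window of 250 bases before to 50 bases after each start was searched on both strands for the core of the ISRE, which reads GAAA, any 2 bases and GAAA. It held a match in 5 of the 7 genes, against 3.44% of the 32851 promoters of the same length in the table. Ifit1, Ifit3, Ifit3b and Oas1a held 2 matches each, those of Oas1a overlapping, and Oas3 held 1. No match was found in the windows of Ifit2 and Oasl1. The gamma-activated site TTCNNNGAA, searched in the same way, matched in the windows of Ifit2 and Oas1a, against 8.30% of all promoters. A match is a description of letters and was not tested as a binding site. Below, each stretch runs 5′ to 3′ on the strand of its gene, at chr19:34640765-34640833 (Ifit1), chr19:34583353-34583436 (Ifit3), chr19:34607749-34607832 (Ifit3b), chr5:120907526-120907565 (Oas1a) and chr5:120777705-120777754 (Oas3), with the matches in capitals. In the IFIT promoters the element lies on the other strand and reads TTTC, any 2 bases and TTTC.
Ifit1: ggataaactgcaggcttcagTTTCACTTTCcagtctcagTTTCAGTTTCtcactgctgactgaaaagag
Ifit3: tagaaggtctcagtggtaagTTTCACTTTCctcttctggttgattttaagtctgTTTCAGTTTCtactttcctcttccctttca
Ifit3b: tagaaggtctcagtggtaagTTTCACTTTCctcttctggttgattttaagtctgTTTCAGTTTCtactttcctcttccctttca
Oas1a: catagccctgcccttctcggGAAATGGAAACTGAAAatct
Oas3: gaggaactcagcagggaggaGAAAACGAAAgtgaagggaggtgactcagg
The stretches of Ifit3 and Ifit3b are the same in 84 of 84 bases, as these genes are close copies of each other. Near copies can also share reads. The 3′ libraries read the ends of transcripts, so the last 500 bases of the protein-coding transcripts of each gene were compared. Of their 90-base windows, 6.57% of those of Ifit3 also occur in Ifit3b and 42.3% of those of Oas1a also occur in Oas1g, a neighbour. The split between Ifit3 and Ifit3b and between Oas1a and Oas1g is thus uncertain. The windows of the other 8 members were not found in the GENCODE M21 transcripts of any other gene.

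Cells were called at 5000 or more UMIs (unique molecular identifiers, each counting 1 captured RNA molecule), which left 6411 KO and 6345 WT cells with medians of 12049 and 12084 UMIs. Among the barcodes over that limit, 9 were the same in both libraries. Clusters were built with listed interferon genes left out of the variable genes, and a name ending in "like" was given from marker genes. Genes outside the lists stayed in, so clusters can still differ in their interferon response. With a minimum of 10000 UMIs and the same genes left out, a phagocyte cluster was led by Gm6545, Slfn1 and Ifit2 (121 KO and 373 WT cells). Levels are CPM, the UMIs of a gene as a share of all UMIs in the cells of a class, scaled to the usual fixed total. With 1 library per group there is no replicate check and no test across animals, so each level has an exact Poisson interval, each share of cells an exact Clopper-Pearson interval and each KO/WT ratio an exact conditional binomial interval, all at 95%, which cover counting error only. Setdb1 itself stood at 8.93 CPM in KO and 17.9 CPM in WT myogenic-like cells, a ratio of 0.499 [0.384 to 0.643]. In phagocyte-like cells it stood at 21.1 CPM in KO and 16.4 CPM in WT cells, in fibroblast-like cells (the fibro-adipogenic class) at 16.9 CPM in KO and 14.0 CPM in WT, and in endothelial-like cells it had 94 KO and 83 WT UMIs, a ratio of 1.00 [0.737 to 1.36]. The labels do not say whether the deleted part of the gene lies under these 3′ tags. Free RNA, taken from barcodes with 20 to 100 UMIs, also held less of the 10 genes in the KO library, with 257 CPM against 571 CPM in the WT library. From the markers of other cell types, it could supply at most 5.71 to 13 CPM of the summed level in the KO classes and 7.17 to 19.3 CPM in the WT classes.

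The 10 genes together were lower in the KO library in the 5 largest named classes of cells. Over all cells they summed to 299 CPM [296 to 303] in the KO library and 612 CPM [607 to 617] in the WT library. Mononuclear phagocyte-like cells, with 3318 KO and 3245 WT cells the largest class, had 489.6 CPM [483 to 496] in KO and 927 CPM [917 to 936] in WT, a ratio of 0.528 [0.519 to 0.537]. Endothelial-like cells (670 KO and 642 WT cells) had 319.7 CPM [307 to 332] in KO and 683 CPM [664 to 703] in WT, a ratio of 0.468 [0.445 to 0.491]. These are the vessel-lining cells, and in each library their level lay below that of the phagocytes, with intervals that do not overlap.

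Fibro-adipogenic or fibroblast-like cells, the stromal cells of muscle, numbered 919 in KO and 775 in WT. Their summed level was 106 CPM [102 to 110] in KO and 347 CPM [338 to 355] in WT, a ratio of 0.306 [0.293 to 0.321]. Different clusters held most of this class in each library: the cluster led by Tnc, Cthrc1 and Postn held 503 of the 919 KO cells, and the cluster led by Clec3b, Apod and Cxcl14 held 416 of the 775 WT cells. Within these 2 clusters the ratios were 0.454 [0.419 to 0.492] and 0.490 [0.457 to 0.525], and with its 3 clusters given the same weights in both libraries the class came to 0.468. Myogenic-like cells, the muscle stem cells and their progeny, numbered 428 in KO and 681 in WT and had the lowest levels in both libraries, 67.5 CPM [62.3 to 73.0] in KO and 113 CPM [107 to 119] in WT, a ratio of 0.598 [0.544 to 0.657]. This class was also split differently between clusters: the one led by Pax7, Myf5 and Cdh15 held 194 of the 428 KO and 522 of the 681 WT cells and the dividing cells 167 KO and 118 WT cells, and with the same cluster weights the ratio was 0.529. When barcodes down to 2000 UMIs were taken in and clustered anew, the myogenic ratio came to 0.959. Without the 1% of cells in which the 10 genes made up the highest share of UMIs it was 0.398.

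Dendritic-like cells (276 KO and 398 WT cells) had 293 CPM in KO and 589 CPM in WT, a ratio of 0.497 [0.459 to 0.539]. A cluster that stayed unnamed, led by Mmp12, Il7r and Hilpda, had 208 CPM in KO and 571 CPM in WT, a ratio of 0.364 [0.341 to 0.389], and another led by Rgs5, Higd1b and Kcnj8 had 317 CPM in KO and 485 CPM in WT, a ratio of 0.655 [0.577 to 0.743]. T or NK lymphocyte-like cells, with 55 KO and 50 WT cells, had 121 CPM [94.4 to 152] in KO and 134 CPM [110 to 161] in WT, a difference that counting error covers. Tenocyte-like cells, the tendon cells, had 152 CPM [137 to 168] in KO and 121 CPM [104 to 140] in WT, a ratio of 1.26 [1.05 to 1.51] from 139 KO and 85 WT cells. This value rested on few cells, as 2 KO cells held 129 of the 373 KO UMIs of the 10 genes. Without the 1% of cells in each library in which the 10 genes made up the highest share of UMIs, the ratio was 0.892 [0.729 to 1.09]. This took out these 2 KO cells and 1 WT cell with 12 of the 177 WT UMIs of the 10 genes. The drop was uneven, as another WT cell held 33 of them and stayed in. With no doublet removal the ratio was 0.967. It was 0.683 without cells holding haemoglobin UMIs or 5 or more UMIs of complement genes (66 of 139 KO and 35 of 85 WT cells left). In WT the levels of T or NK lymphocyte-like, tenocyte-like and myogenic-like cells did not differ beyond their intervals.

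**Figure D1:**
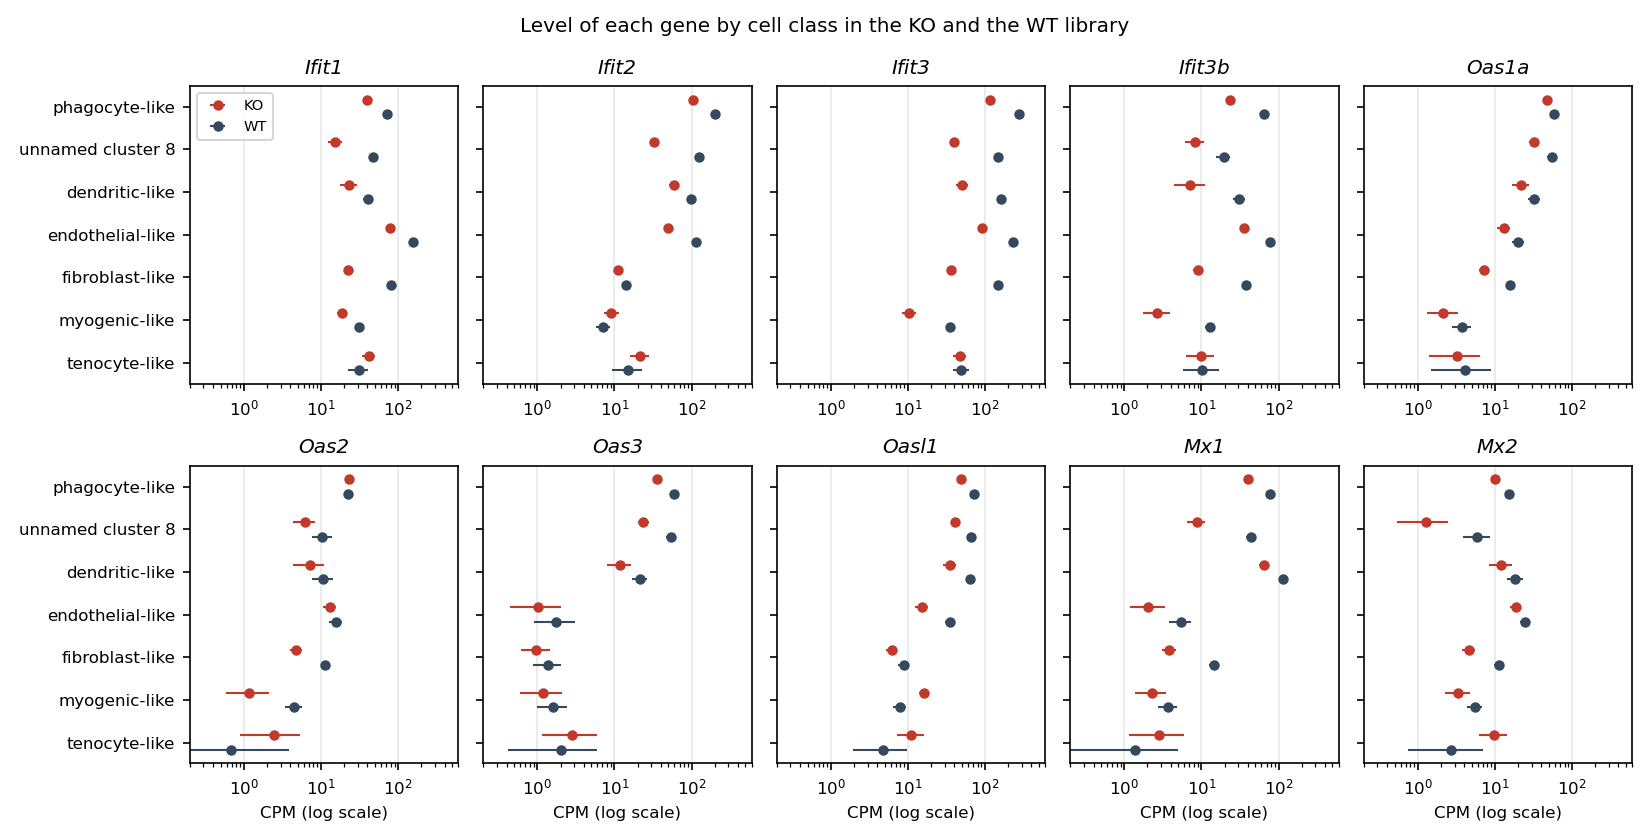
Level of each of the 10 genes (CPM, log scale) in 7 cell classes, with the KO library in red above the WT library in dark grey and bars for the 95% Poisson interval. In phagocyte-like cells 9 of the 10 genes sit left of their WT point, while Oas2 has 23.4 CPM in KO and 22.7 CPM in WT.

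Among the 4 IFIT genes, Ifit3 had the highest level in phagocyte-like cells in both libraries. It had 118 CPM [114 to 121] in KO and 278 CPM [273 to 283] in WT phagocyte-like cells, a ratio of 0.423 [0.409 to 0.438]. Its copy Ifit3b had 23.7 CPM in KO and 64.9 CPM in WT, the lowest ratio of the 10 genes there at 0.366 [0.340 to 0.394]. Counted as 1 gene, because reads can be split between them, Ifit3 and Ifit3b had 141 CPM in KO and 343 CPM in WT, a ratio of 0.412 [0.40 to 0.425]. Ifit2, whose product also acts on RNA and translation, had 103 CPM in KO and 204 CPM in WT, a ratio of 0.506 [0.488 to 0.525]. Ifit1, which recognises the cap of viral RNA, had 39.4 CPM in KO and 72.6 CPM in WT, a ratio of 0.543 [0.511 to 0.577]. Summed, the IFIT genes stood at 284 CPM in KO and 619 CPM in WT phagocyte-like cells, a ratio of 0.459 [0.449 to 0.469].

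Ifit1, Ifit3 and Ifit3b were also lower in the KO library in fibroblast-like cells, where Ifit3 had 36.1 CPM in KO and 149 CPM in WT, a ratio of 0.241 [0.224 to 0.261], and Ifit1 had 22.5 CPM in KO and 82.0 CPM in WT, a ratio of 0.274 [0.248 to 0.302]. With the clusters given the same weights in both libraries the log2 ratio of CPM + 5 was -1.26 for Ifit3, against -1.91 without the weights, and -1.10 for Ifit1, against -1.66. In the 2 clusters with most of the KO and of the WT cells the Ifit3 ratios were 0.365 and 0.421. Ifit3b had 8.95 CPM in KO and 38.2 CPM in WT. Ifit2 differed least there, with 11.2 CPM [9.93 to 12.6] in KO and 14.3 CPM [12.6 to 16.2] in WT, a ratio of 0.783 [0.659 to 0.930]. Its log2 ratio of CPM + 5 was 0.24 with barcodes down to 2000 UMIs and 0.23 with the clusters given the same weights in both libraries, both above 0. By cluster its ratio was 1.11 [0.791 to 1.58] in the cells led by Tnc and 1.33 [1.04 to 1.69] in those led by Clec3b. In those led by Hmmr it was 0.614 [0.387 to 0.995]. In endothelial-like cells Ifit1 had 79.1 CPM in KO and 158 CPM in WT, Ifit2 had 50.2 CPM in KO and 113 CPM in WT, Ifit3 had 91.9 CPM in KO and 232 CPM in WT, and Ifit3b had 35.4 CPM in KO and 78.3 CPM in WT. All 4 endothelial ratios lay between 0.397 and 0.50. In myogenic-like cells Ifit3 had 10.3 CPM in KO and 35.0 CPM in WT, a ratio of 0.296 [0.235 to 0.369], and Ifit3b had 2.69 CPM in KO and 12.9 CPM in WT, a ratio of 0.208 [0.131 to 0.318]. Ifit2, with 9.15 CPM in KO and 7.07 CPM in WT myogenic-like cells, did not differ beyond counting error (ratio 1.29 [0.954 to 1.75]).

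The OAS genes summed to 155 CPM in KO and 214 CPM in WT phagocyte-like cells, a ratio of 0.725 [0.702 to 0.749], above that of the IFIT genes. In phagocyte-like cells Oas3, the longest of these enzymes, had 35.6 CPM in KO and 60.0 CPM in WT, a ratio of 0.594 [0.557 to 0.634]. Oasl1, an OAS-like protein without the enzyme's activity that is known in mouse to restrain translation of Irf7, had 48.7 CPM in KO and 72.9 CPM in WT, a ratio of 0.668 [0.631 to 0.708]. Oas1a had 47.5 CPM in KO and 58.7 CPM in WT, a ratio of 0.810 [0.762 to 0.860]. Oas2 had 23.4 CPM [22 to 24.9] in KO and 22.7 CPM [21.3 to 24.3] in WT, from 967 KO and 917 WT UMIs, so its ratio of 1.03 [0.940 to 1.13] holds 1. None of the 4 IFIT genes had an interval that reached the lower bound of Oas2.

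In fibroblast-like cells Oas2 had 4.76 CPM [3.94 to 5.70] in KO and 11.4 CPM [9.92 to 13.1] in WT, a ratio of 0.417 [0.330 to 0.525]. Its ratio was 0.512 in the cluster led by Tnc, 0.674 in that led by Clec3b and 0.341 in that led by Hmmr. With the same cluster weights in both libraries its ratio of CPM + 5 did not reach 1.5-fold. In myogenic-like cells Oas2 had 1.18 CPM in KO and 4.44 CPM in WT, a ratio of 0.267 [0.126 to 0.513] from 11 KO and 59 WT UMIs. In endothelial-like cells the Oas2 ratio of 0.827 [0.624 to 1.09] holds 1, as does its ratio of 0.877 [0.291 to 2.77] in the unnamed cluster led by Rgs5. Among the 9 phagocyte clusters its ratios ran between 0.859 and 1.51, below 1 in 5 of them, and 1 cluster had an interval above 1. Outside the phagocytes Oas3 had 23.7 CPM in KO and 53.6 CPM in WT cells of the unnamed cluster led by Mmp12, 11.8 CPM in KO and 21.2 CPM in WT dendritic-like cells, and 17 CPM in KO and 21.9 CPM in WT T or NK lymphocyte-like cells, the last from 10 KO and 18 WT UMIs. It had 24 KO and 25 WT UMIs in fibroblast-like, 8 and 12 in endothelial-like and 11 and 21 in myogenic-like cells, where its ratios hold 1. Oas1a had 7.22 CPM in KO and 15.7 CPM in WT fibroblast-like cells, a ratio of 0.460 [0.379 to 0.556]. By cluster its ratio was 0.610 in the cells led by Tnc, 0.516 in those led by Clec3b and 0.370 in those led by Hmmr.

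The ratio of Oasl1 lay on both sides of 1. It had 15.1 CPM in KO and 34.8 CPM in WT endothelial-like cells, a ratio of 0.435 [0.346 to 0.544]. In myogenic-like cells it had 16.2 CPM [13.8 to 19.1] in KO and 7.89 CPM [6.46 to 9.56] in WT, a ratio of 2.06 [1.59 to 2.67]. Of the 151 KO UMIs behind this value, 55 came from 1 cell, and a UMI was seen in 38 of 428 KO cells and 54 of 681 WT cells. Without the cell with the most Oasl1 UMIs in each library the log2 ratio of CPM + 5 came to 0.34, against 0.72 with it, and with the clusters given the same weights in both libraries it was 0.25. Without the 1% of cells with the highest share of UMIs of the 10 genes in each library it was -0.31, the other way. Whether the ratio differs between classes was not tested.

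The 2 Mx genes were lower in the KO library in the phagocytes. Mx1, whose protein is nuclear in mouse and acts on influenza-like viruses, had 40.2 CPM in KO and 77.9 CPM in WT phagocyte-like cells, a ratio of 0.516 [0.486 to 0.548]. Mx2 had 10.0 CPM in KO and 15.2 CPM in WT, a ratio of 0.657 [0.579 to 0.746]. Dendritic-like cells had 65.2 CPM of Mx1 in KO and 114 CPM in WT, the highest Mx1 level of any class in both libraries. In fibroblast-like cells Mx1 had 3.79 CPM in KO and 14.4 CPM in WT, a ratio of 0.264 [0.206 to 0.335]. Within the 2 clusters that hold most of this class in KO and in WT the Mx1 ratios were 0.338 and 0.573. The log2 ratio of CPM + 5 of Mx1, -1.14, was -0.64 with the same cluster weights. It was -0.47 without the 10% of cells with the highest share of member UMIs and -0.37 without cells holding haemoglobin or complement UMIs. In fibroblast-like cells Mx2 had 4.60 CPM in KO and 11.2 CPM in WT, a ratio of 0.411 [0.324 to 0.519]. Its ratio was 0.578 in the cluster led by Tnc, 0.547 in that led by Clec3b and 0.262 in that led by Hmmr. With the same cluster weights its ratio of CPM + 5 did not reach 1.5-fold. Endothelial-like cells had 18.8 CPM of Mx2 in KO and 24.6 CPM in WT, a ratio of 0.765 [0.609 to 0.959], while Mx1 had only 16 KO and 37 WT UMIs there.

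**Figure D2:**
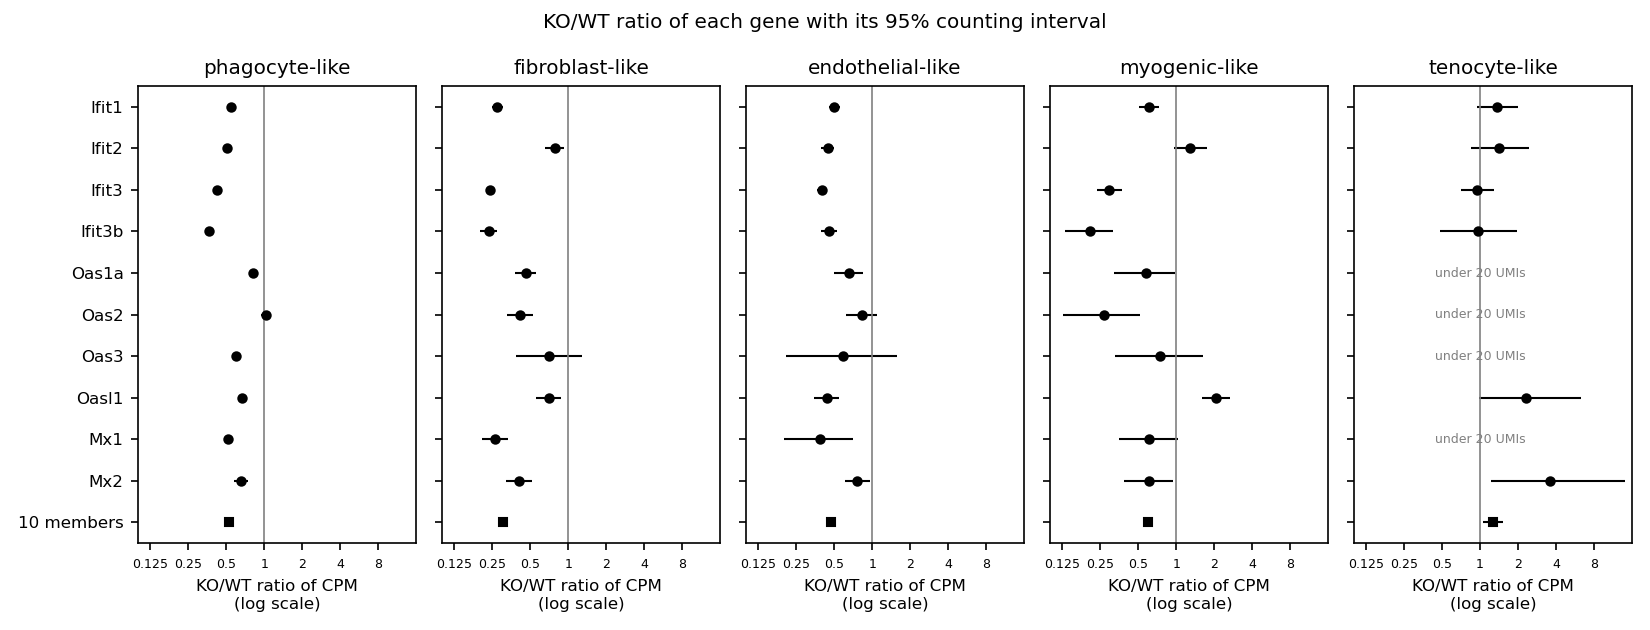
KO/WT ratio of CPM (log scale) of each gene and of the 10 together in 5 cell classes, with bars for the 95% conditional binomial interval and a line at 1. The 10 together lie at 0.528, 0.306, 0.468 and 0.598 in the first 4 classes and at 1.26 in tenocyte-like cells, where 4 genes had under 20 UMIs.

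A gene was called different where the ratio of CPM + 5 reached 1.5-fold, among genes with at least 20 UMIs in both libraries together. In phagocyte-like cells all 10 members passed that minimum and 6 were called lower in KO (Ifit1, Ifit2, Ifit3, Ifit3b, Oas3 and Mx1) and 0 higher, where 0.577% of all 15422 genes were called lower and 0.7% higher. Among the 6935 genes at 10 CPM or more, 1.05% were called lower. The median log2 ratio was -0.74 over the members and 0.04 over all genes. At a fold of 2 the count of members lower was 2. In fibroblast-like cells 7 of 10 were lower (2.14% of all genes, and 2.6% higher), in endothelial-like cells 5 of 10 (0.726% of all genes, and 1.86% higher) and in dendritic-like cells 7 of 10 (1.85% of all genes, and 3.34% higher). The unnamed cluster led by Mmp12 had 9 of 10 lower (1.42% of all genes, and 2.56% higher), and 0 members were higher in any of these 4. The unnamed cluster led by Rgs5 had 3 of 7 lower and 0 higher, where 6.97% of all genes were called lower and 9.88% higher. Over all cells together 6 of 10 were lower and 0 higher, where 0.655% of all genes were called lower and 0.62% higher. In myogenic-like cells 4 members were lower (Ifit1, Ifit3, Ifit3b and Oas2), where 2.94% of genes were, and Oasl1 was higher, where 4.55% of genes were. Over the 17 alternatives for which calls were counted, a fold of 2 among them, the number of members lower ran between 3 and 8 in fibroblast-like, 3 and 6 in endothelial-like and 1 and 5 in myogenic-like cells. In fibroblast-like cells Ifit1, Ifit3 and Ifit3b were lower under all 17, Oas1a and Mx1 under 14, Oas2 under 13 and Mx2 under 12. In myogenic-like cells Ifit3 was lower under 16 of the 17, Ifit3b under 15, Oas2 under 11 and Ifit1 under 9, and Oasl1 was higher under 11. In tenocyte-like cells 6 members passed the minimum, 0 were lower and 2, Oasl1 and Mx2, were higher, where 3.44% of all genes were called lower and 10.5% higher. Without the 1% of tenocyte-like cells with the highest share of UMIs of the 10 genes in each library these 2 were again called higher. Ifit3 was then called lower, with 26.6 CPM in KO and 49.5 CPM in WT. The T or NK lymphocyte-like cells had 3 members past the minimum and 0 called in either direction, where 8.17% of genes were called lower and 17.4% higher.

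Markers of other cells and of the cell cycle moved with the comparison. The 16 phagocyte markers summed to 2845 CPM in KO and 1617 CPM in WT fibroblast-like cells (14 of 16 higher), to 3649 CPM in KO and 1805 CPM in WT endothelial-like cells (15 of 16 higher) and to 2332 CPM in KO and 1097 CPM in WT myogenic-like cells (12 of 16 higher), with 0 of the 16 at 0 UMIs in these sums. Erythroid markers summed to 783 CPM in KO and 44.8 CPM in WT myogenic-like cells (4 of 7 higher). The 12 S phase genes summed to 510.5 CPM in KO and 289.7 CPM in WT fibroblast-like cells (9 of 12 higher) and to 697 CPM in KO and 409 CPM in WT myogenic-like cells (10 of 12 higher), and the part of the cell cycle in the member levels was not tested. Of all genes, 2.6% were called higher in fibroblast-like, 1.86% in endothelial-like and 4.55% in myogenic-like cells. Without cells holding haemoglobin UMIs or, outside the phagocytes, 5 or more UMIs of the complement genes C1qa, C1qb and C1qc, the summed ratio was 0.342 in fibroblast-like cells (242 of 919 KO and 256 of 775 WT cells left), 0.491 in endothelial-like cells (421 of 670 and 292 of 642 left) and 0.642 in myogenic-like cells (168 of 428 and 239 of 681 left). In the phagocyte-like cells, 10 inflammatory monocyte genes summed to 626 CPM in KO and 1105 CPM in WT. Of these, 5 of 10 were called lower, where 0.577% of all genes were. Without the cluster led by Hp, Ly6c2 and Ly6a2 the summed member ratio was 0.543.

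The difference in level has 2 parts, the share of cells with a UMI and the number of UMIs in such cells. For this, a random draw of 5000 UMIs was taken from each cell, and no cell was left out. At that depth 59.3% [57.6 to 61.0] of KO and 72.4% [70.8 to 74.0] of WT phagocyte-like cells had a UMI of at least 1 of the 10 genes, and the positive cells held 4.25 UMIs of them on average in KO and 6.61 in WT. Without thinning the shares were 76.8% in KO and 85.4% in WT. In endothelial-like cells the thinned shares were 47.8% [43.9 to 51.6] in KO and 67.4% [63.7 to 71.1] in WT, and in fibroblast-like cells 29.2% [26.2 to 32.2] in KO and 45.4% [41.9 to 49.0] in WT. Myogenic-like cells had 17.3% [13.8 to 21.2] in KO and 21.6% [18.6 to 24.9] in WT, intervals that overlap, with median depths of 18972 and 17352 UMIs before thinning. Tenocyte-like cells had 25.9% in KO and 25.9% in WT. No class here is known to lack the genes, so the share that free RNA alone could give was taken from the bounds above: at most 6.29% in KO and 3.52% in WT myogenic-like cells, and 3.05% in KO and 6.44% in WT phagocyte-like cells.

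For single genes in phagocyte-like cells, the ratio of shares lay further from 1 than the ratio of UMIs per positive cell, except for Oas2. Ifit3 had a UMI in 24% of KO and 41.0% of WT cells, a ratio of 0.586, with 2.60 UMIs per positive cell in KO and 3.47 in WT, a ratio of 0.750. Ifit2 had a UMI in 20.4% of KO and 36.6% of WT cells, and its positive cells held 2.61 UMIs in KO and 2.83 in WT, so they differed by a ratio of 0.922. Oas3, with 14.0% of KO and 22.5% of WT cells positive, had 1.31 UMIs per positive cell in KO and 1.38 in WT. Mx1 had a UMI in 13.7% of KO and 22.8% of WT cells, and Oas2 in 10.8% of KO and 11.2% of WT cells. In endothelial-like cells Ifit1 was seen in 17.6% of KO and 31.5% of WT cells with 2.54 UMIs per positive cell in KO and 2.43 in WT. A lower mean RNA number per cell also lowers the share of cells with a UMI at a fixed depth, so these 2 parts do not separate fewer responding cells from less RNA in each.

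**Figure D3:**
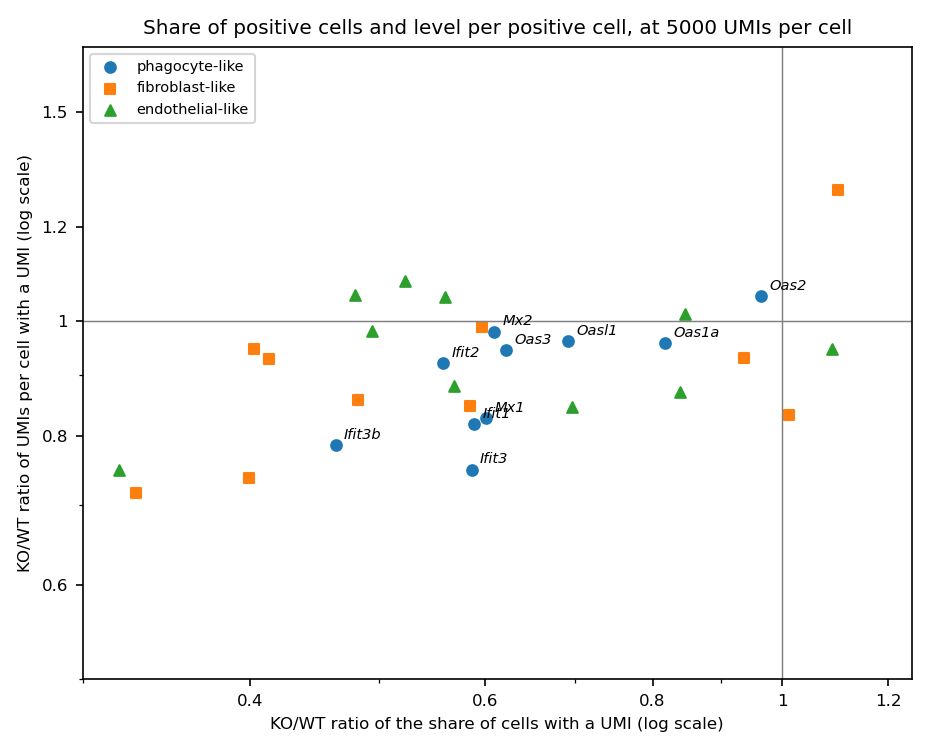
KO/WT ratio of the share of cells with a UMI (x axis) against the KO/WT ratio of UMIs per positive cell (y axis), both on log scales and at 5000 UMIs per cell, for the 10 genes in 3 cell classes. The points spread between 0.319 and 1.10 along the x axis and between 0.717 and 1.29 along the y axis.

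Cells with several of the genes were fewer in the KO library. At 5000 UMIs, 20.3% [18.9 to 21.7] of KO and 37.5% [35.9 to 39.2] of WT phagocyte-like cells had UMIs of at least 3 of the 10 genes, and 8.02% of KO and 18.3% of WT cells had at least 5. These cells with at least 3 held 73.4% of the members' UMIs in KO and 86.9% in WT. In endothelial-like cells 13% [10.5 to 15.8] in KO and 25.9% [22.5 to 29.4] in WT had at least 3, in fibroblast-like cells 2.94% [1.95 to 4.25] in KO and 11.9% [9.68 to 14.4] in WT, and in myogenic-like cells 1.17% [0.380 to 2.71] in KO and 4.41% [2.99 to 6.23] in WT. The ratio of shares was thus further below 1 for cells with several members than for cells with any. The 10% of phagocyte-like cells with the most member UMIs held 56.6% of them in KO and 49.1% in WT. With the 10% of cells with the highest share of member UMIs before thinning left out of each library, the summed ratio was 0.464.

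**Figure D4:**
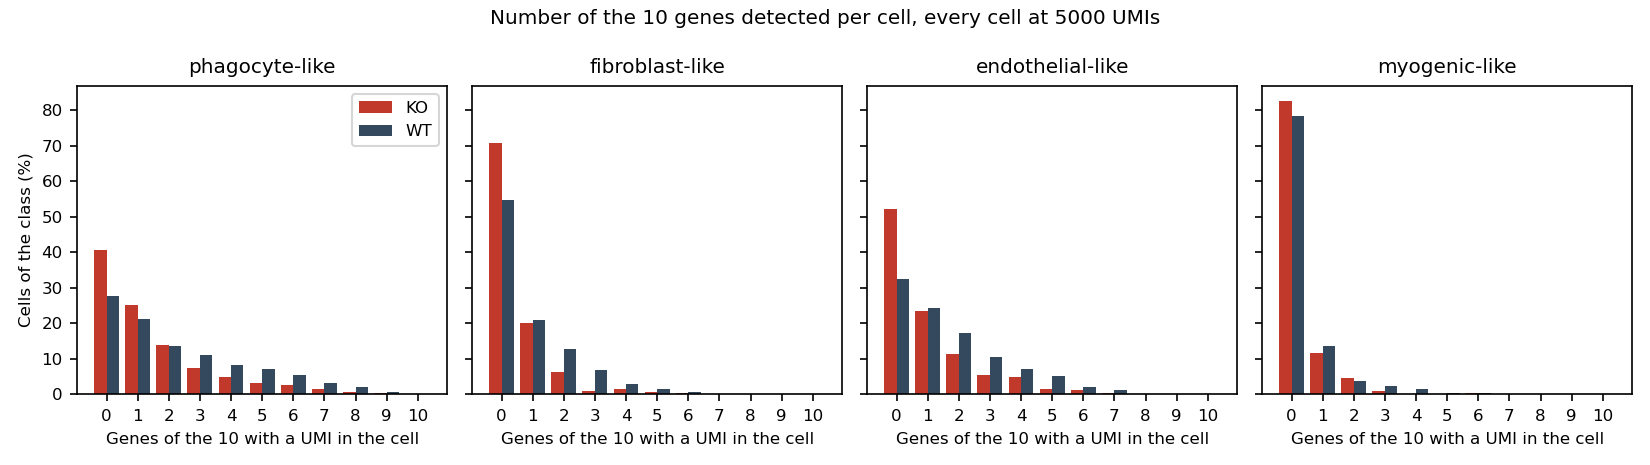
Share of cells (%) by the number of the 10 genes with a UMI in the cell, at 5000 UMIs per cell, with KO bars in red left of WT bars in dark grey, for 4 cell classes. In phagocyte-like cells 20.3% of KO and 37.5% of WT cells have 3 or more.

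Split into 28 clusters with at least 20 cells in each library, the summed level was lower in KO in 26, and the interval lay below 1 in 25. It lay below 1 in all 9 phagocyte clusters, with ratios between 0.238 and 0.633. The highest WT level was in the cluster led by Hp, Ly6c2 and Ly6a2, of which Ly6c2 is known from inflammatory monocytes, with 565 CPM in KO (40 cells) and 1886 CPM in WT (136 cells), a ratio of 0.299 [0.255 to 0.349]. Next in WT came the cluster led by Cbr2, Ccl8 and F13a1 with 669.8 CPM in KO and 1536 CPM in WT, a ratio of 0.436 [0.420 to 0.452]. The lowest phagocyte ratio, 0.238 [0.210 to 0.270], was in the dividing cells led by H2ac8, Birc5 and Nusap1, with 198 CPM in KO (78 cells) and 832 CPM in WT (96 cells). The cluster led by Atp6v0d2, Gpnmb and Fabp5 had the lowest WT level of the 9 with 246 CPM in KO and 405 CPM in WT, a ratio of 0.608 [0.570 to 0.648].

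Within these 9 clusters, Ifit2, Ifit3, Ifit3b, Oas3 and Mx1 had intervals below 1 in all 9, Ifit1 and Oasl1 in 8, Oas1a in 5 and Mx2 in 4. In the dividing phagocytes Ifit3 had 21.5 CPM in KO and 221 CPM in WT, from 34 and 373 UMIs, a ratio of 0.0976 [0.0666 to 0.139]. The 3 myogenic clusters had ratios of 0.467 [0.398 to 0.545] in the cells led by Pax7, Myf5 and Cdh15, 0.738 [0.644 to 0.846] in the dividing cells, and 0.560 [0.363 to 0.861] in the cells led by Actc1, Myog and Cck. Oasl1 had 32.4 CPM in KO and 11.6 CPM in WT dividing myogenic cells, where the KO cell with 55 Oasl1 UMIs lies. Without that cell it had 17.8 CPM in KO and 11.6 CPM in WT there, a ratio of 1.54 [1.02 to 2.36], and the Pax7 cluster had 5.34 CPM in KO and 7.27 CPM in WT. Of the 3 clusters whose interval was not below 1, 1 was the tenocytes at 1.26 [1.05 to 1.51], and the Schwann or glial-like cells (32 KO and 32 WT cells) had 490.1 CPM in KO and 489.6 CPM in WT, a ratio of 1.00 [0.793 to 1.26]. The other was the T or NK lymphocytes.

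**Figure D5:**
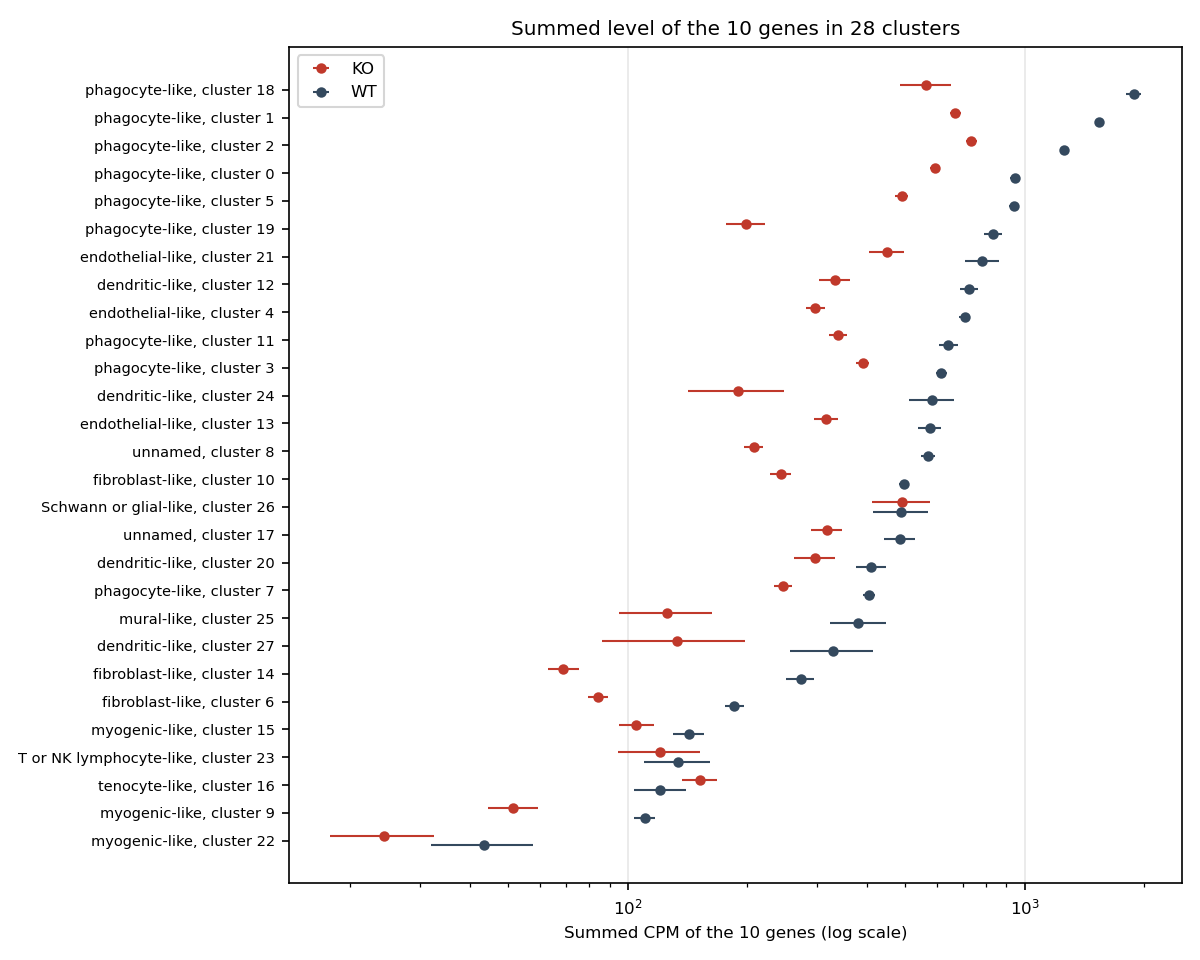
Summed level of the 10 genes (CPM, log scale) in 28 clusters, ordered by the WT level, with KO in red above WT in dark grey and bars for the 95% Poisson interval. KO points lie left of WT points in 26 clusters; the tenocyte-like cluster lies at 152 CPM in KO and 121 CPM in WT.

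The make-up of the summed level differed too. IFIT genes gave 58.0% [57.3 to 58.7] of the members' UMIs in KO and 66.8% [66.3 to 67.3] in WT phagocyte-like cells, while OAS genes gave 31.7% [31.1 to 32.4] in KO and 23.1% [22.7 to 23.5] in WT, and Mx genes 10.3% and 10.1%. In fibroblast-like cells the IFIT share was 74.1% [72.4 to 75.8] in KO and 81.9% [80.9 to 82.8] in WT, in endothelial-like cells 80.3% [78.7 to 81.8] in KO and 85.0% [84.0 to 86.1] in WT, and in myogenic-like cells 60.9% [57.0 to 64.8] in KO and 76.2% [74.0 to 78.3] in WT. This share does not depend on how the libraries were scaled to each other.

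Across the 28 clusters in both libraries, 56 points in all, the 45 pairs of members had Pearson correlations of log2(CPM + 5) between -0.03 (Ifit1 and Mx1) and 0.94 (Ifit3 and Ifit3b), with a median of 0.58. The points share their library and differ in depth, so the correlations are descriptions. Of 13924 other genes with at least 200 UMIs, the 8 most like the mean of the members were Dhx58 (r = 0.88), Oasl2 (0.87), Dtx3l (0.87), Trafd1 (0.86), Irf7 (0.86), Daxx (0.86), Oas1g (0.85) and Ifi27l2a (0.85). All but Trafd1 were in the lists of interferon genes.

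The upstream pathway was followed in a list of ligands, receptors, transducers and inhibitors. Values of these and of the lists in the paragraphs below are for whole classes, without the same cluster weights in both libraries. Fibroblast-like and myogenic-like cells were split differently between clusters, and the part of this in the list values was not tested. Of the type I and III interferon ligands, Ifnb1 had 28 UMIs in KO and 53 in WT phagocyte-like cells, 0.678 CPM and 1.31 CPM, a ratio of 0.516 [0.314 to 0.830]. Over all cells 15 of 20 such ligands had 0 UMIs in KO and 17 of 20 in WT, which leaves these genes too sparse to compare. Ifng, the type II ligand made by T and NK cells, had 151 UMIs in all KO and 258 in all WT cells, 1.54 CPM and 2.82 CPM. None of the 5 receptor genes that passed the minimum was called in any of the 4 largest named classes. Of all genes, 0.577% in phagocyte-like, 2.14% in fibroblast-like, 0.726% in endothelial-like and 2.94% in myogenic-like cells were called lower. In the same order, 0.7%, 2.6%, 1.86% and 4.55% were called higher, so a lack of calls among these few genes lies near the share over all genes. Ifnar1, a chain of the type I receptor, had 74.5 CPM in KO and 52.3 CPM in WT phagocyte-like cells, a ratio of 1.42 [1.35 to 1.51], and Ifnar2, the other chain, had 213 CPM in KO and 214 CPM in WT.

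Among the transducers, Irf7, the interferon-induced factor that amplifies the type I response, had 331 CPM in KO and 636 CPM in WT phagocyte-like cells, a ratio of 0.520 [0.509 to 0.531]. It had 53.6 CPM in KO and 176 CPM in WT fibroblast-like cells (0.305 [0.286 to 0.326]), 141 CPM in KO and 409.7 CPM in WT endothelial-like cells (0.345 [0.322 to 0.370]) and 22.8 CPM in KO and 57.2 CPM in WT myogenic-like cells (0.399 [0.341 to 0.465]). Stat2 had 50.6 CPM in KO and 66.5 CPM in WT phagocyte-like cells, a ratio of 0.760 [0.717 to 0.805]. Irf9, a DNA-binding part of the same complex, had 57.5 CPM in KO and 58.2 CPM in WT (0.988 [0.933 to 1.05]), and Jak1 had 157 CPM in KO and 125.1 CPM in WT. Irf9 was lower in KO in fibroblast-like cells, with 24 CPM in KO and 38.4 CPM in WT, a ratio of 0.626 [0.560 to 0.699].

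Among the inhibitors, Usp18, which is itself induced by interferon and blocks the type I receptor, had 33.4 CPM in KO and 59.5 CPM in WT phagocyte-like cells, a ratio of 0.562 [0.526 to 0.601]. It was lower in KO in the other 3 classes as well, with ratios of 0.509, 0.583 and 0.317 in fibroblast-like, endothelial-like and myogenic-like cells. Socs3, an inhibitor of JAK kinases that responds to other cytokines, had 159.6 CPM in KO and 78.4 CPM in WT phagocyte-like cells, a ratio of 2.04 [1.95 to 2.12], but 149 CPM in KO and 276 CPM in WT fibroblast-like cells, a ratio of 0.540 [0.518 to 0.564].

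Of the family relatives outside the 10, Oasl2, an OAS-like gene beside Oasl1, had 96.4 CPM in KO and 127 CPM in WT phagocyte-like cells, a ratio of 0.761 [0.730 to 0.793]. Ifit1bl1 had 4.79 CPM in KO and 14.8 CPM in WT, a ratio of 0.324 [0.274 to 0.381], and Oas1g, which shares sequence with Oas1a, had 15.1 CPM in KO and 20.3 CPM in WT. The list of 74 other type I interferon-stimulated genes overlaps the transducers, inhibitors and relatives. It had 24 of 72 measured genes lower and 0 higher in phagocyte-like cells (median log2 ratio -0.37), 36 of 72 lower and 0 higher in fibroblast-like (-0.60), 23 of 72 lower and 0 higher in endothelial-like (-0.40) and 20 of 70 lower and 2 higher in myogenic-like cells (-0.38). Over all genes the medians were 0.04, 0.03, 0.07 and 0.03 in the same order. Of all genes 0.577%, 2.14%, 0.726% and 2.94% were called lower and 0.7%, 2.6%, 1.86% and 4.55% higher. Bst2, which tethers budding virus, had 871 CPM in KO and 1372 CPM in WT phagocyte-like cells, a ratio of 0.635 [0.627 to 0.643]. Ifitm3, which blocks viral entry, had 1668 CPM in KO and 2772 CPM in WT, a ratio of 0.602 [0.596 to 0.607], while its neighbour Ifitm2 had 1042 CPM in KO and 913 CPM in WT, a ratio of 1.14 [1.13 to 1.16].

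Genes known to answer mainly to interferon-gamma were also listed. Of the GTPases of this group, 8 of 17 were lower in phagocyte-like, 10 of 15 in fibroblast-like, 7 of 15 in endothelial-like and 6 of 14 in myogenic-like cells, and 0 were higher in these classes (median log2 ratios of -0.50, -0.95, -0.51 and -0.51). Of all genes 0.577%, 2.14%, 0.726% and 2.94% were called lower in the same order of classes. Iigp1, which attacks the membrane around intracellular parasites, had 43.4 CPM in KO and 134 CPM in WT fibroblast-like cells, a ratio of 0.324 [0.301 to 0.348]. Of the genes of class I antigen presentation, 2 of 18 were lower in phagocyte-like, 12 of 18 in fibroblast-like and 3 of 18 in endothelial-like cells, while in myogenic-like cells 1 of 16 was lower and 1 higher, where 2.94% of all genes were lower and 4.55% higher. B2m, the light chain of class I molecules, had 3187 CPM in KO and 3544 CPM in WT phagocyte-like cells, and 566 CPM in KO and 926 CPM in WT fibroblast-like cells, ratios of 0.899 [0.893 to 0.906] and 0.612 [0.598 to 0.626].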

How the data were processed

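The deposited matrices hold UMI counts per gene and barcode, 1 matrix for the KO and 1 for the WT library. Per the labels' protocols, the tissue was broken up by collagenase II and dispase, live cells were sorted with Hoechst and propidium iodide, and 10x 3′ libraries were made. GRCm38, Seurat 4.0.1, STAR 2.7.8a and STARsolo 2.7.9a are listed in the submitters' processing notes. Annotation release and counting settings were not given in the sources used here. Of the 55487 gene IDs, 55227 are in GENCODE M21, which gave locations. The matrices held 138667420 UMIs in KO and 121703522 in WT.

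Barcodes with at least 5000 UMIs and 300 genes and at most 10% mitochondrial UMIs were kept (6799 KO and 6732 WT barcodes passed the UMI minimum). Scrublet's own threshold marked 0 doublets in either library, so cells with the top scores were taken out, 0.8% for each 1000 barcodes, 368 in KO and 360 in WT. Cells were clustered with scanpy 1.11.5 and leidenalg 0.10.2 (30 components, 15 neighbours, resolution 1.0). Of 2000 variable genes, 1969 stayed after the listed interferon genes were left out. Classes were named from marker lists, with at least 3 markers detected. Classes with under 50 cells in either library were not compared as classes. Counts were summed per class and scaled to CPM. Calls use the ratio of CPM + 5 at 1.5-fold and at least 20 UMIs. The calling step and the intervals were run on simulated counts with Poisson error only. That run cannot show how they behave with spread between cells or animals. Intervals were computed with scipy 1.17.1, sums with numpy 2.4.6 and pandas 2.3.3 under python 3.11.15, and plots with matplotlib 3.10.9.

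All 10 members are named, along with any measured relative, ligand, receptor, transducer or inhibitor gene, up to 4 genes with the most UMIs of each other list, and the 8 genes most like the members. The members and lists were chosen with earlier results of these data known. Results for some genes of these lists are not reported here.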

Additional observations from a re-analysis of the deposited data

Results flagged for a closer look

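Oasl1 in myogenic-like cells had a KO/WT ratio of 2.06 [1.59 to 2.67], on the other side of 1 from its ratio of 0.668 in phagocyte-like cells, and the difference was not tested. Without the 1% of cells with the highest share of member UMIs its log2 ratio of CPM + 5 was -0.31, against 0.72 with them. Mx2 in tenocyte-like cells had a ratio of 3.58 [1.23 to 14.2], from 24 KO and 4 WT UMIs, against 0.657 in phagocyte-like cells, and this difference was not tested. The 10 genes together in tenocyte-like cells had a ratio of 1.26 [1.05 to 1.51], against 0.528 in phagocyte-like cells, also not tested. Without the 1% of cells with the highest share of member UMIs in each library it was 0.892. These were 2 KO cells with 129 of 373 member UMIs and 1 WT cell with 12 of 177.

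Barcodes with 2000 to 5000 UMIs, which the comparisons leave out, held more of the 10 genes in KO than in WT in the myogenic-like class. The 10 genes summed to 216 CPM [188 to 247] in 322 KO barcodes and to 67.8 CPM [27.3 to 139.7] in 30 WT barcodes, with 7 UMIs of them in the WT barcodes. KO free RNA held 257 CPM, and KO myogenic-like cells of 5000 or more UMIs 67.5 CPM. WT free RNA held 571 CPM, and such WT cells 113 CPM. Fibroblast-like barcodes of this depth held 284 CPM in KO (1385 barcodes) and 426 CPM in WT (40 barcodes). Endothelial-like ones held 415 and 442 CPM, and phagocyte-like ones 480 and 889 CPM. All these barcodes enter the values with a minimum of 2000 UMIs, and the part of free RNA in them was not tested.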

How the results depend on the processing

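The summed KO/WT ratio stayed below 1 in phagocyte-like, fibroblast-like, endothelial-like and myogenic-like cells under every alternative run. The myogenic value of 0.959 at 2000 UMIs lies near 1 and is given without an interval, so it does not show a difference. With a minimum of 2000 UMIs the summed ratio was 0.516, 0.399, 0.585 and 0.959 in that order of classes, with 10000 UMIs 0.506, 0.274, 0.496 and 0.684, and with no doublet removal 0.504, 0.290, 0.527 and 0.669. In phagocyte-like cells it was 0.509 with at most 5% mitochondrial UMIs and 0.509 with interferon genes used in clustering. Under each of these settings cells were clustered and named anew, so a class does not hold the same cells. At 10000 UMIs the cluster led by Actc1, Acta1 and Myog was named muscle fibre-like and left the myogenic class. At 2000 UMIs the cluster led by Hp, Ly6c2 and Ifitm6 was unnamed and left the phagocyte class. Median-of-ratios scaling gave 0.493 in phagocyte-like and 0.439 in endothelial-like cells, and moved the median of all genes by at most 0.10 on the log2 scale. The same cluster weights in both libraries gave 0.518 in phagocyte-like, 0.468 in fibroblast-like and 0.529 in myogenic-like cells. Subtracting free RNA gave 0.281 in fibroblast-like and 0.516 in myogenic-like cells. At a fold of 2, the count of members lower in phagocyte-like cells was 2, and it was 5 to 7 under the other alternatives. The ratio of the share of positive phagocyte-like cells was 0.628 at 1000 UMIs per cell, 0.899 without thinning and 0.540 for cells with at least 3 members. Among single members, Ifit2 in fibroblast-like cells had a log2 ratio of 0.24 at 2000 UMIs and 0.23 with the same cluster weights, Oasl1 in fibroblast-like cells 0.38 at 2000 UMIs, and Oas1a in myogenic-like cells 0.13 at 2000 UMIs, each the other way from the reported value. Members whose ratio has an interval that holds 1 changed side too: Oas3 had a log2 ratio of 0.37 in fibroblast-like, 0.32 in endothelial-like and 0.32 in myogenic-like cells at 2000 UMIs. The cause of these shifts was not tested.

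Further alternatives were chosen after seeing the data. Without the cell with the most member UMIs the myogenic ratio was 0.499. Other settings left out the cells with the highest share of member UMIs among their UMIs. Without the top 1% the ratio was 0.501 in phagocyte-like, 0.251 in fibroblast-like, 0.441 in endothelial-like and 0.398 in myogenic-like cells. The log2 ratio of Oasl1 in myogenic-like cells was then -0.31. Without the top 10% by this share, the summed ratio was 0.464 in phagocyte-like, 0.279 in fibroblast-like and 0.388 in endothelial-like cells. With the unnamed cluster led by Mmp12 the phagocyte ratio was 0.508, and without the cluster led by Hp 0.543. Without cells holding haemoglobin or complement UMIs it was 0.342 in fibroblast-like and 0.491 in endothelial-like cells. Oas2 in endothelial-like cells had a log2 ratio of 0.46 in that setting. In tenocyte-like cells the summed ratio was 0.967 with no doublet removal and 0.683 without cells holding haemoglobin or complement UMIs. It was 0.892 without the 1% and 0.776 without the 10% of cells with the highest share of member UMIs. All of these are below 1, and the ratio was between 1.10 and 1.34 under the other settings. No paired analysis was possible because each group has 1 library.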
